A study of Mus musculus with 10 samples.

Results

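The mitosis and spindle genes are 42 mouse genes whose products bring a cell into mitosis, build and check the spindle, separate the chromosomes and divide the cell. They were followed in blood stem cell-enriched bone marrow cells with and without the histone methyltransferase Mll (gene symbol Kmt2a). The genes were chosen by symbol, and for each the brightest probe set was read, by its mean over the 10 arrays, among those naming a single gene. Of the 42, Ccnb1 (cyclin B1) was not analysed here, and 41 had such a probe set, of 18194 genes on the array with one. All 41 also passed the filter on dim genes, so they stand among 12581 tested genes.

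The Mll-deficient group was made of 5 Mx1-cre;Mll F/F mice, in which the interferon-inducible Mx1 promoter drives cre and both Mll alleles are flanked by loxP sites. The control group was made of 5 Mll F/F mice, which carried the same floxed alleles without cre, so that effects of cre and of Mll loss cannot be told apart. The mice were females of 8 weeks, on a B6.SJL-Ptprca Pep3b/BoyJ background. Mice of both groups received 3 doses of pI:pC, an interferon inducer, 48 hours apart, the dose being 50 µg plus 10 µg for each gram the mouse weighed. On day 6, LSK/CD48- cells were sorted from the marrow, a fraction enriched in blood stem cells that carries Sca-1 and Kit and lacks lineage markers and CD48. RNA of 1500 to 10000 cells was amplified and hybridised to Affymetrix mouse genome arrays, 1 array per sample.

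Mitosis is run by cyclin-dependent kinase 1 bound to cyclins A and B, which is switched on at the end of G2 and pushes the cell to condense its chromosomes and assemble a spindle. The spindle checkpoint holds the cell until every kinetochore is attached, after which the anaphase-promoting complex destroys cyclin B and securin and the chromosomes part. Most of these genes are transcribed in a wave in G2 and M phase, through CCAAT boxes bound by NF-Y and through the cell cycle genes homology region (CHR), an element bound by the MuvB core with B-Myb or Foxm1. Adult blood stem cells are mostly out of cycle, and interferon is known to bring them into division for a short time.

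All arrays had been scaled to 1 trimmed mean, 150.001 arbitrary units, and their median signal lay between 18.1 and 28.9. The 3' bias of the amplified RNA was read from Gapdh and Actb, as the log2 ratio of their 3' control probe sets to their middle ones. This ratio averaged 3.16 ± 0.60 in Mll-deficient and 2.97 ± 1.42 in control samples (SD, n = 5 each; two-sided exact permutation p = 0.810, where 0.00794 is the smallest possible). Control replicate 5 stood apart, with the highest ratio, 5.24, and it correlated with the remaining controls at 0.926 on average, against at least 0.952 for the others. The brighter Kmt2a probe set read 216 ± 97.2 in Mll-deficient and 260.2 ± 85.8 in control samples (SD, n = 5 each). Its place relative to the deleted exons was not looked up, so it does not check the labels. Of 5 tested markers of the sorted fraction 0 passed, and 3 had an unadjusted p under 0.05, all lower in Mll-deficient samples. These were Kit (72.3 ± 27.0 in Mll-deficient and 126 ± 34.2 in control samples), Procr (538 ± 296 in Mll-deficient and 1124 ± 562 in control samples) and Slamf1 (54.8 ± 6.65 in Mll-deficient and 101 ± 39.0 in control samples), of which the last 2 mark blood stem cells. Their log2 differences were -0.73, -1.08 and -0.66 (adjusted p = 0.132, 0.0864 and 0.139). Cd48, which the sort selects against, read 124 ± 41.5 in Mll-deficient and 109 ± 63.1 in control samples, Cd34 read 417 ± 185 in Mll-deficient and 332 ± 70.3 in control samples, and Ly6a, which encodes Sca-1, was not analysed here. The neutrophil genes S100a8 and Ngp, which the sort should remove, read 25895 ± 5032 in Mll-deficient and 23795 ± 8157 in control samples for S100a8 and 21911 ± 4742 in Mll-deficient and 20237 ± 4849 in control samples for Ngp. In bulk RNA of this kind, fewer cells in mitosis and less RNA of a gene per cell cannot be told apart.

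No mitosis or spindle gene passed the test in either direction: 0 of 41 were called by limma, against 5.51% of all tested genes. The comparison used limma with Benjamini-Hochberg adjustment over the 12581 tested genes and a threshold of 0.05 on the adjusted p. Differences are Mll-deficient minus control on the log2(signal + 16) scale. In Mll-deficient cells 473 of all tested genes rose (3.76%) and 220 fell (1.75%), and of the 41 these counts were 0 and 0. At an unadjusted p of 0.05, 4 of the 41 (9.76%) and 20.7% of all tested genes were past the threshold, 1 member upward and 3 downward. Signals of the groups were fully apart for 1 of the 41, Kif11, and for 6.96% of all tested genes. The median difference was -0.11 over the 41 and -0.035 over all tested genes, and 15 of the 41 (36.6%) lay above 0, against 46.6% of all tested genes.

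A missed threshold does not show that the levels were alike, so the intervals are given. The 95% interval of the difference lay wholly inside a 2-fold change in either direction for 27 of the 41 genes. It reached past a 2-fold rise for 7 genes, among them Ccnb2, Plk1 and Cenpe, and past a 2-fold fall for 7, among them Kif23, Kif11 and Ndc80. The intervals that left out 0 were 4, those of Kif23, Kif11 and Cenpf below it and that of Cdc25c above it. A change of 1.5-fold lay outside the interval in both directions for 2 genes. The differences themselves ran from -0.79 for Kif23 to 0.65 for Ccnb2 on the log2 scale, none of them past the threshold.

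**Figure D1:**
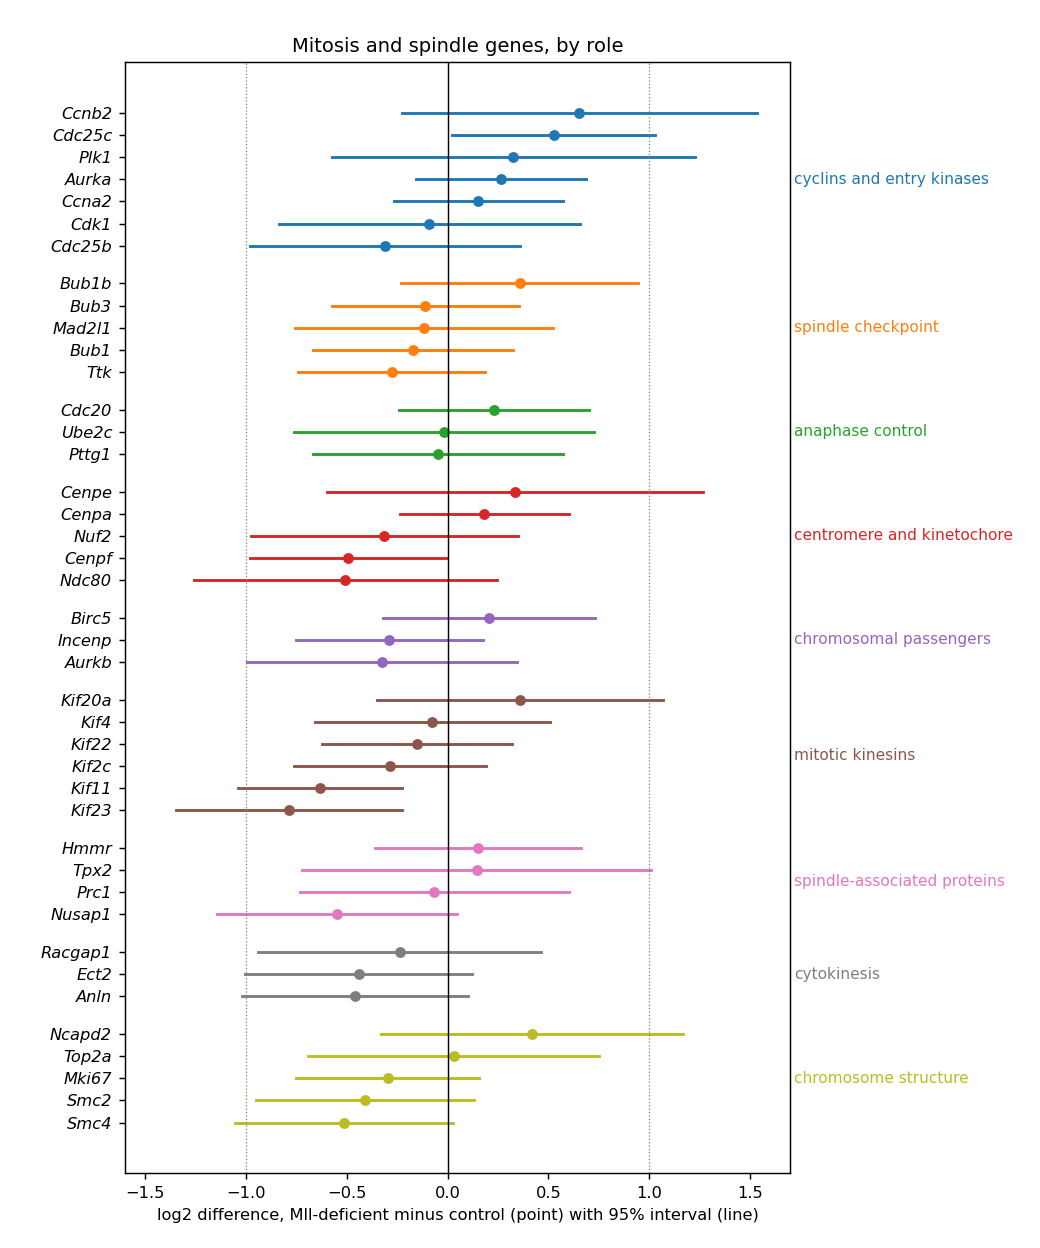
Log2 difference (Mll-deficient minus control, x axis) of each of the 41 measured mitosis and spindle genes, grouped by role, with points for the fitted difference and lines for its 95% interval (n = 5 arrays per group, dotted lines at a 2-fold change). The intervals of Kif23, Kif11, Cenpf and Cdc25c leave out 0, and 15 of the 41 points lie above 0.

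Of 7 measured cyclins and entry kinases 0 passed. Their differences lay above 0 for 5 (71.4%, against 46.6% of all tested genes) and below 0 for 2, with a median of 0.26. Ccnb2, cyclin B2, a partner of cyclin-dependent kinase 1, had signals of 1490.5, 1296, 1281, 358 and 1186 in Mll-deficient samples, against 785, 1049, 386, 1195 and 273 in control samples. Its Mll-deficient replicate 4 lay far below the other 4 and within the control range, and the groups overlapped. The difference was 0.65 ± 0.42 (SE, 95% interval -0.23 to 1.53, adjusted p = 0.406). Cdc25c, a phosphatase that activates Cdk1, had signals of 521, 312, 669, 477 and 569 in Mll-deficient samples, against 371, 316, 235, 470.2 and 343 in control samples. Of the Mll-deficient samples, 4 lay above every control and replicate 2 lay among the low controls, so the groups overlapped. Its difference was 0.53 ± 0.24 (SE, 95% interval 0.021 to 1.03, adjusted p = 0.219). In the fit over probe sets, its other one was at 0.26 ± 0.29 (SE, adjusted p = 0.705).

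Cdk1, the kinase that drives entry into mitosis, had signals of 1358, 1483, 1343, 736 and 906 in Mll-deficient samples, against 2229.5, 1523, 906, 1758 and 453 in control samples. The controls alone spanned the whole range of both groups, and the difference was -0.09 ± 0.35 (SE, 95% interval -0.84 to 0.66, adjusted p = 0.920). Plk1, a kinase that acts on the centrosomes and activates Cdk1, had signals of 822, 740.1, 1050.1, 389 and 446 in Mll-deficient samples, against 1168, 1031, 353, 455 and 173 in control samples. Both groups held high and low samples, and the interval of Plk1 was wide, at -0.57 to 1.23 around 0.33. On leaving out 1 array the difference of Plk1 ran from -0.044 to 0.62. Aurka, the spindle pole kinase, varied less, from 377 to 508 in Mll-deficient and from 286 to 432 in control samples, with a difference of 0.26 ± 0.20 (SE, 95% interval -0.16 to 0.69, adjusted p = 0.492). The other tested probe set of Aurka, a dim one, lay below 0 in the fit over probe sets, at -0.52 ± 0.28 (SE, adjusted p = 0.338). Ccna2, cyclin A2, which acts in S and G2 phase, was at 0.15 ± 0.20 (SE, adjusted p = 0.719) and Cdc25b, a relative of Cdc25c, at -0.31 ± 0.32 (SE, adjusted p = 0.636).

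Of 5 spindle checkpoint genes and 3 genes of anaphase control 0 passed. Of the checkpoint genes, Bub1b, which encodes the BubR1 inhibitor of the anaphase-promoting complex, lay above 0 at 0.36 ± 0.28 (SE, adjusted p = 0.510). Bub1 and Ttk, which encode kinetochore kinases, lay below it at -0.17 and -0.28, as did Mad2l1 and Bub3, which encode further parts of the inhibitory complex, at -0.12 and -0.11. Their adjusted p lay between 0.510 and 0.875. Cdc20, the activator of the anaphase-promoting complex, was at 0.23 ± 0.22 (SE, adjusted p = 0.612), and Ube2c, its ubiquitin-conjugating enzyme, at -0.019 ± 0.35 (SE, adjusted p = 0.982). Pttg1, which encodes securin, the inhibitor of the enzyme that cuts cohesin, had signals of 4715, 4700.2, 5474, 8674 and 6987 in Mll-deficient samples, against 4801, 5032, 6909.6, 3859 and 13394 in control samples. The highest of these was that of control replicate 5, and the difference was -0.046 ± 0.29 (SE, 95% interval -0.67 to 0.57, adjusted p = 0.950).

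Among the centromere and kinetochore genes, 3 lay below 0 and 2 above. Cenpf, a large kinetochore protein that peaks in G2 and M phase, had signals of 634, 654, 605, 580.3 and 421 in Mll-deficient samples, against 1207, 553, 673, 810.4 and 964 in control samples. The Mll-deficient samples were close together and reached down past the lowest control, while the controls ranged more than 2-fold, and the groups overlapped. The difference was -0.49 ± 0.23 (SE, 95% interval -0.98 to -0.0081, adjusted p = 0.232). In the fit over probe sets, the other tested ones of Cenpf were at -0.042 ± 0.21 (SE, adjusted p = 0.942) and 0.072 ± 0.24 (SE, adjusted p = 0.916). These were dim, averaging 20.1 and 15.4 in Mll-deficient and 21.0 and 13.4 in control samples. Ndc80 and Nuf2, which together form a rod that grips microtubules, were at -0.51 ± 0.36 (SE, adjusted p = 0.457) and -0.31 ± 0.31 (SE, adjusted p = 0.630). Cenpa, the histone variant that marks the centromere, was at 0.18 ± 0.20 (SE, adjusted p = 0.662), and Cenpe, a kinesin of the kinetochore, at 0.33 ± 0.44 (SE, adjusted p = 0.727). Cenpe was among the most variable members, with 124 to 859.6 in control samples alone. The chromosomal passenger complex, which corrects faulty attachments, was measured through 3 genes, of which 0 passed. The kinase gene Aurkb was at -0.33 ± 0.32 (SE, adjusted p = 0.616), the scaffold gene Incenp at -0.29 ± 0.22 (SE, adjusted p = 0.499) and Birc5, which encodes survivin, at 0.20 ± 0.25 (SE, adjusted p = 0.699).

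The mitotic kinesins held the pair of genes with the smallest p of all members. Kif11, which encodes Eg5, the motor that pushes the spindle poles apart, had signals of 282, 324, 419.8, 313 and 279.6 in Mll-deficient samples, against 557, 521, 511, 518 and 427 in control samples. Every Mll-deficient sample lay below every control, though the highest Mll-deficient sample came close to the lowest control. The difference was -0.63 ± 0.19 (SE, 95% interval -1.04 to -0.23, adjusted p = 0.0651). It passed the threshold of 0.05 in 4 alternatives: with a filter at the 60th percentile (adjusted p = 0.0497), with array weights (adjusted p = 0.0303), with the 3' to middle ratio as a covariate (adjusted p = 0.0249) and without control replicate 5 (adjusted p = 0.0438). Over all alternatives and left-out arrays the difference stayed between -0.73 and -0.55. The other tested probe sets of Kif11 lay on the same side, in the fit over probe sets, at -0.58 ± 0.23 (SE, adjusted p = 0.187) and -0.43 ± 0.35 (SE, adjusted p = 0.565).

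Kif23, a kinesin of the central spindle needed for cytokinesis, had signals of 316, 409, 371, 166 and 189 in Mll-deficient samples, against 537, 559, 357, 616 and 398 in control samples. Mll-deficient replicates 4 and 5 were the lowest of all samples, and the highest Mll-deficient samples overlapped the lowest controls. The difference was -0.79 ± 0.27 (SE, 95% interval -1.35 to -0.23, adjusted p = 0.0977), and with the 3' to middle ratio as a covariate it was -0.74, past the threshold (adjusted p = 0.0343). The remaining kinesins had larger p. Kif2c, which takes microtubules apart, was at -0.28 (adjusted p = 0.516). Kif22 and Kif4, motors that bind chromosomes, were at -0.15 and -0.076 (adjusted p = 0.758 and 0.914). Kif20a, which acts in cytokinesis, was at 0.36 (adjusted p = 0.594).

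**Figure D2:**
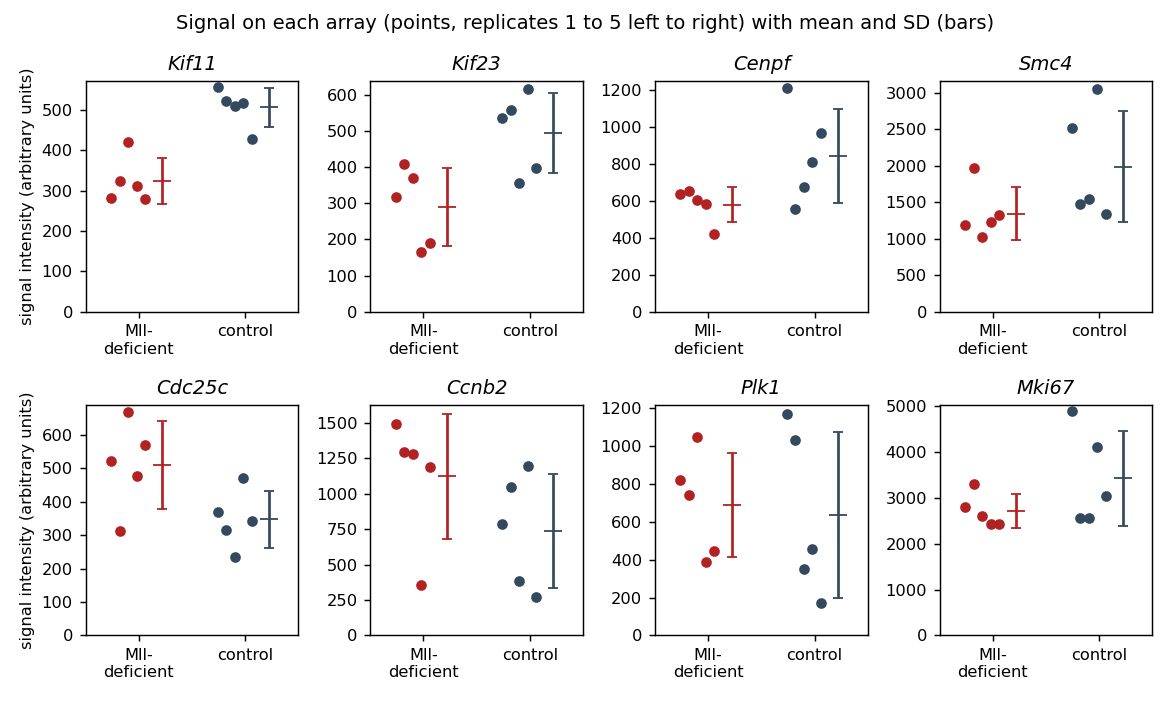
Signal intensity (arbitrary units, linear y axis from 0) of 8 mitosis and spindle genes on each array, with points for replicates and bars for the mean and SD (n = 5 per group). All 5 Mll-deficient points of Kif11 lie below the 5 control points, while the groups overlap for the other genes.

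The 3 cytokinesis genes all lay below 0, and 0 passed. Anln, which encodes anillin, a scaffold of the contractile ring, was at -0.46 ± 0.26 (SE, adjusted p = 0.351). Ect2, which activates RhoA at the division plane, was at -0.44 ± 0.27 (SE, adjusted p = 0.378), and Racgap1, the partner of Kif23 in the central spindle, at -0.24 ± 0.33 (SE, adjusted p = 0.742). Of the spindle-associated proteins, Nusap1, a microtubule bundler, was at -0.55 ± 0.28 (SE, adjusted p = 0.284), while Tpx2, an activator of Aurka, Hmmr, a spindle pole protein, and Prc1, which bundles the central spindle, lay between -0.065 and 0.15.

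Of 5 genes of chromosome structure 0 passed, and they lay on both sides of 0. Smc4, the ATPase core of condensin together with Smc2, had signals of 1186, 1967, 1027, 1225 and 1332 in Mll-deficient samples, against 2521, 1476, 1548, 3061 and 1337 in control samples. Control replicates 1 and 4 were the highest, and the other controls lay within the range of the Mll-deficient samples. The difference was -0.51 ± 0.26 (SE, 95% interval -1.05 to 0.026, adjusted p = 0.267). A second bright probe set of Smc4 had a larger difference, in the fit over probe sets -1.07 ± 0.30 (SE, adjusted p = 0.0605), with 890.3 ± 371 in Mll-deficient and 1862 ± 668 in control samples (SD, n = 5 each). Smc2 was at -0.41 ± 0.26 (SE, adjusted p = 0.394), and the condensin subunit gene Ncapd2 lay on the other side, at 0.42 ± 0.35 (SE, adjusted p = 0.550). Mki67, which encodes the Ki-67 proliferation antigen that coats mitotic chromosomes, had signals of 2789.9, 3306, 2608, 2424 and 2427 in Mll-deficient samples, against 4899.6, 2554, 2556, 4097 and 3037 in control samples. Control replicates 1 and 4 were again the highest, the groups overlapped, and the difference was -0.30 ± 0.21 (SE, 95% interval -0.75 to 0.16, adjusted p = 0.472). Top2a, the topoisomerase that untangles chromosomes, was at 0.031 ± 0.34 (SE, 95% interval -0.69 to 0.75, adjusted p = 0.972).

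These genes varied together between samples of the same group. For each array, the median deviation of the 41 genes from their means over the 10 arrays was taken. It was 0.11, 0.08, 0.21, -0.30 and -0.35 in Mll-deficient replicates 1 to 5, against 0.47, 0.024, -0.33, 0.35 and -0.31 in control replicates 1 to 5. Control replicates 1 and 4 were thus the highest samples and Mll-deficient replicate 5 and control replicate 3 the lowest, and both groups lay on both sides of 0. The lowest Mll-deficient sample was replicate 4 or 5 for 28 of the 41 genes (68.3%, against 40.3% of all tested genes). The lowest control was replicate 3 or 5 for 34 of the 41 (82.9%, against 42.3%). These replicates are also the lowest of their group by the members' median deviation, so the counts partly restate it. The median deviation over all tested genes stayed between -0.024 and 0.061 on every array.

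The 4 low samples were those with the highest 3' to middle ratios, and this split was made after the values were seen. The ratio lay between 3.42 and 5.24 in Mll-deficient replicates 4 and 5 and control replicates 3 and 5, and between 1.73 and 2.99 in the other 6. The median deviation of the mitosis and spindle genes lay between -0.35 and -0.30 in those 4 samples, against 0.024 to 0.47 in the 6. Within both groups, 31 of the 41 genes (75.6%) had a lower mean in the samples with a higher ratio, as did 31.7% of all tested genes and 12 of 44 DNA replication genes. The log2 shift (samples with a higher ratio minus the rest) was -1.10 in Mll-deficient and -1.99 in control samples for Cenpe, and -0.98 in Mll-deficient and -1.74 in control samples for Tpx2. It was -1.02 in Mll-deficient and -1.66 in control samples for Plk1, and -0.76 in Mll-deficient and -1.48 in control samples for Cdk1. The median shift over the 41 genes was -0.33 in Mll-deficient and -0.70 in control samples, against 0.013 and 0.049 over all tested genes. Pttg1 and Ect2 went the other way in both groups, with 0.65 in Mll-deficient and 1.08 in control samples for Pttg1 and 0.29 in Mll-deficient and 0.33 in control samples for Ect2. The part of this 3' bias in the members' values was not tested.

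**Figure D3:**
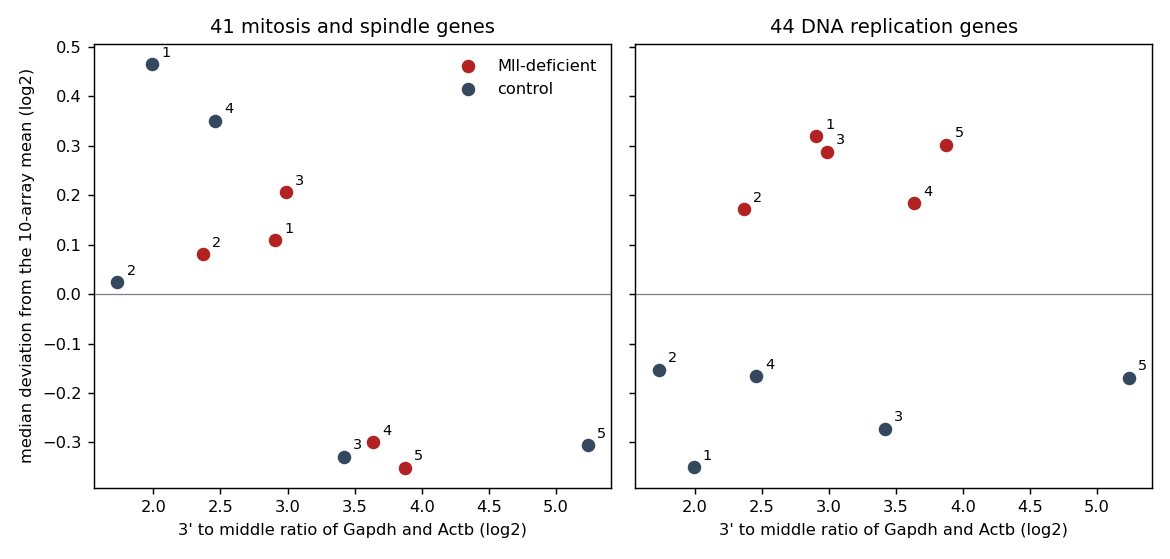
Median deviation from the 10-array mean (log2, y axis) of the 41 mitosis and spindle genes (left) and of 44 DNA replication genes (right) against the log2 ratio of 3' to middle probe sets of Gapdh and Actb (x axis), 1 numbered point per array, coloured by group. The 4 arrays with the highest ratios are the 4 lowest on the left, and on the right all 5 Mll-deficient points lie above 0 and all 5 control points below.

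Splitting the samples by this ratio moved several members. In the 6 samples with a lower ratio (3 of each group), the median difference of the 41 genes was -0.18, and in the 4 with a higher one (2 of each group) it was -0.011, with 0 members past the threshold in both, against 267 and 26 of all tested genes. Kif11 was at -0.63 in the first set and -0.63 in the second, and Kif23 at -0.63 and -1.03. Ccnb2 was at 0.44 and 0.98, while Cdk1 changed sides, at -0.38 and 0.34. Plk1 was near 0 in the first set, at 0.07, and at 0.71 in the second. The difference between the sets was not tested.

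Genes of DNA replication, which act in the preceding S phase, are given beside them. Of 44 tested, 10 rose, 0 fell and 34 did not pass, while 3.76% of all tested genes rose and 1.75% fell. The median difference of the 44 was 0.50, against -0.035 over all tested genes, and 42 lay above 0 (95.5%, against 46.6%). Their median deviation was 0.17 to 0.32 in Mll-deficient and -0.35 to -0.15 in control samples, so that the groups did not overlap. The count of calls was 3 in the 6 samples with a lower 3' to middle ratio and 0 in the 4 with a higher one, where fewer samples were fitted. Mcm2, a subunit of the replicative helicase, averaged 2731 ± 1002 in Mll-deficient and 1114 ± 309.6 in control samples (SD, n = 5 each), and its difference was 1.26 ± 0.26 (SE, adjusted p = 0.0116). Rfc4, a subunit of the clamp loader, was at 1.31 ± 0.29 (SE, adjusted p = 0.0141). The other 8 that rose were Orc2, Orc6, Cdc6 and Mcm10, which act at replication origins, Rpa2, which binds single-stranded DNA, and the polymerase subunit genes Pole2, Pold1 and Pold2. Their differences lay between 0.67 and 1.04 (adjusted p 0.0142 to 0.0492). The difference between the replication and the mitosis lists was not tested.

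The array held more than 1 tested probe set for 28 of the 41 genes, and for 14 of these all tested probe sets lay on the same side of 0. Of all 88 tested probe sets of the members, 0 passed the threshold in a limma fit over 27022 probe sets, where 3.28% passed. Kif11, Kif23, Smc2, Smc4, Anln, Aurkb, Incenp, Bub1, Prc1 and Ttk lay below 0 in every tested probe set, and Cdc20, Cdc25c, Ccna2 and Bub1b above it. Others disagreed. Cenpe was at 0.33 ± 0.43 (SE, adjusted p = 0.747) in its brightest probe set and at -0.88 ± 0.32 (SE, adjusted p = 0.144) in its other one. Cenpa was at 0.18 ± 0.20 (SE, adjusted p = 0.699) and -0.72 ± 0.24 (SE, adjusted p = 0.116), with a further dim one at -0.15. For 10 members the brightest probe set had an identifier ending in _s_at or _x_at, the maker's mark for probes that can match several transcripts. Incenp was one of them, and a probe set of Incenp without that mark was at -0.58 ± 0.20 (SE, adjusted p = 0.130). With such probe sets set aside wherever a gene had another above the filter, 0 members passed and the median was -0.09.

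**Figure D4:**
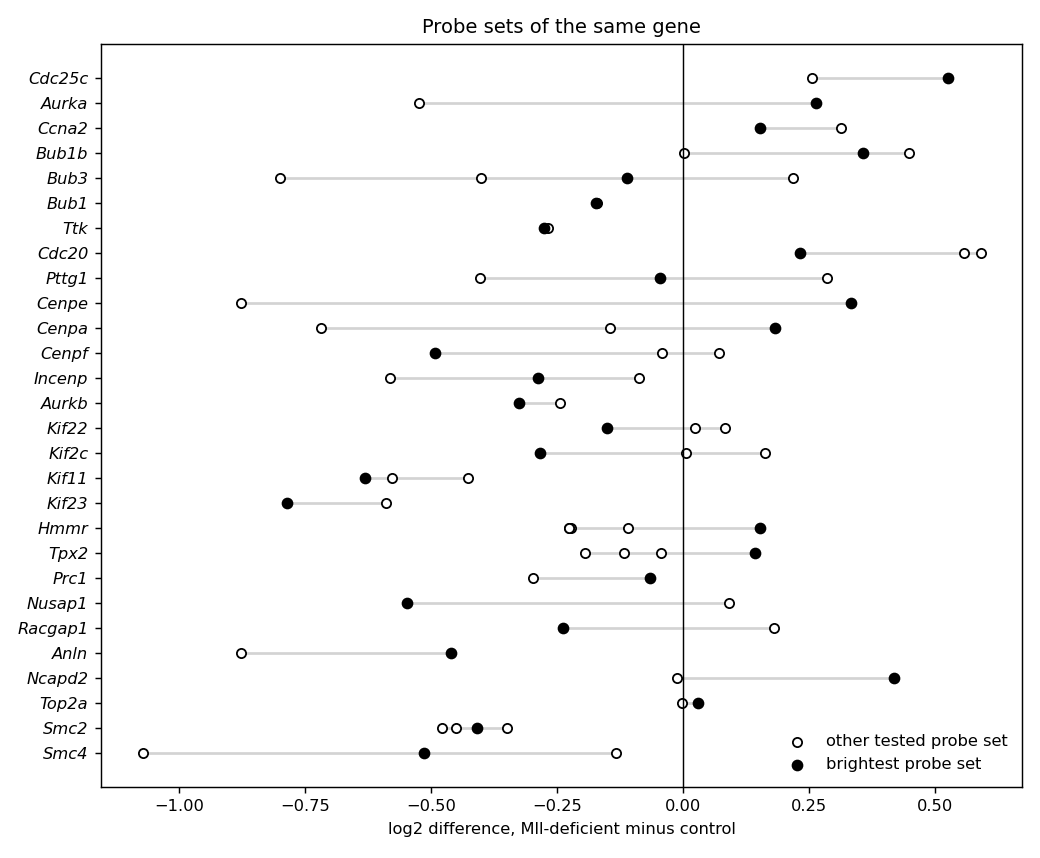
Log2 difference (Mll-deficient minus control, x axis) of every tested probe set of the 28 mitosis and spindle genes that had more than 1, with filled points for the brightest probe set of a gene and open points for the others. The points of Kif11, Kif23 and Smc2 lie together below 0, and those of Cenpe and Cenpa lie on both sides.

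Promoter letters, which the choice by symbol did not use, were searched for both elements, with no enrichment test. RefSeq promoters (GRCm38.p6) were matched for 35 of the 42 genes, and the 250 bases before the start were searched on both strands. CCAAT was found in 27 of the 35 (77.1%) and at 2 or more places in 18 (51.4%), against 36.3% and 12% of 17491 protein-coding genes. The CHR letters TTTGAA or TTCGAA were found in 14 of the 35 (40%), against 16.4% of protein-coding genes, and both elements in 13 of the 35 (37.1%), against 6.11%. Of the 35, 7 held neither. Of 38 DNA replication genes, 6 held the CHR letters (15.8%) and 23 a CCAAT (60.5%). On the other strand the letters read ATTGG for CCAAT and TTCAAA for TTTGAA, and matches of the 2 elements can share their end bases. A match is a stretch of letters, and bases after the start were not searched. The last 120 bases before the start are shown for the kinesins with the smallest p, for the cyclin with the largest positive difference and for the kinase at the centre of mitotic entry, with both elements in capitals.
Kif11 (chr19:37376262-37376381, plus strand): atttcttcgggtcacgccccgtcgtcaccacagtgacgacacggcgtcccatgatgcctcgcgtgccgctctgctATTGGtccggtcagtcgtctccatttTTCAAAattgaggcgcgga
Kif23 (chr9:61946800-61946919, minus strand): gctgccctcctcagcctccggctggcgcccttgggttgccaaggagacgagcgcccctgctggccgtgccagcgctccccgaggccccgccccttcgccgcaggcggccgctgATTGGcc
Ccnb2 (chr9:70421555-70421674, minus strand): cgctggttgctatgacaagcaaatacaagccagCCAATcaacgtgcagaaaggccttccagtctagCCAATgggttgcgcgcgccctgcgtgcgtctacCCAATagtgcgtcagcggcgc
Cdk1 (chr10:69352913-69353032, minus strand): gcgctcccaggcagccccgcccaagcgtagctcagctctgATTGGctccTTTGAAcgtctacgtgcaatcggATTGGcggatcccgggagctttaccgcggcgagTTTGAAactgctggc
In these 120 bases Kif11 held 1 match of each element and Cdk1 held 2 of each, while Kif23 held 1 CCAAT and Ccnb2 held 3. Farther up in the 250 bases, Ccnb2 also held a CHR match and Cdk1 a further CCAAT. In the comparison of the groups Kif11 was at -0.63, Cdk1 at -0.09 and Ccnb2 at 0.65.

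The 6 further lists of mitotic genes outside the 42 held 165 tested genes, of which 3 passed, all of them lower in Mll-deficient cells. That is 1.82% of the 165, near the 1.75% of all tested genes that fell, so the count says nothing particular about these lists, and the 3 are described as single genes. Cep55, which brings the abscission machinery to the midbody at the end of cytokinesis, had signals of 424, 660.5, 329.5, 526 and 413 in Mll-deficient samples, against 767, 803, 807, 1095 and 899.5 in control samples. Every Mll-deficient sample lay below every control. Cep55 fell by 0.90 ± 0.21 (SE, adjusted p = 0.0229), but averaging its probe sets ended the call (-0.44, adjusted p = 0.110). Cdc14a, a phosphatase that opposes cyclin-dependent kinases, had signals of 122, 172, 92.6, 211 and 192 in Mll-deficient samples, against 272, 215, 307, 346 and 435 in control samples, with every Mll-deficient sample below every control. It fell by 0.94 ± 0.25 (SE, adjusted p = 0.0384). Esco2, an acetyltransferase that makes cohesin hold sister chromatids together, had signals of 37.3, 67.9, 30.7, 71.2 and 26 in Mll-deficient samples, against 141, 67.0, 117, 113 and 83.5 in control samples, where 2 Mll-deficient samples lay among the low controls. It fell by 0.97 ± 0.27 (SE, adjusted p = 0.0429). The calls were near the threshold. Median centring ended all 3 (adjusted p = 0.0561 for Cep55, 0.0608 for Cdc14a and 0.0892 for Esco2). Quantile normalization ended those of Cdc14a (adjusted p = 0.0550) and Esco2 (adjusted p = 0.0587), as did testing without a filter (adjusted p = 0.0553 and 0.0802). Of the 3, 0 passed in the sets of 6 and 4 samples split by 3' to middle ratio. Leaving out 1 array ended that of Cep55 in 4 of 10 fits, that of Cdc14a in 7 and that of Esco2 in 6.

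**Figure D5:**
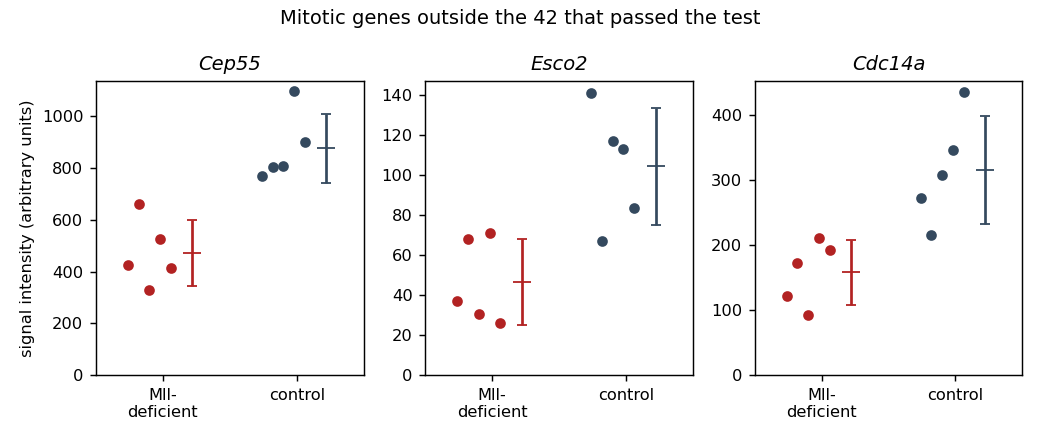
Signal intensity (arbitrary units, linear y axis from 0) of Cep55, Esco2 and Cdc14a on each array, with points for replicates 1 to 5 and bars for the mean and SD (n = 5 per group). All Mll-deficient points of Cep55 and Cdc14a lie below the control points, and those of Esco2 overlap them.

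By list, 1 of 14 further cytokinesis genes fell (Cep55), 1 of 24 genes of the anaphase-promoting complex and mitotic exit (Cdc14a) and 1 of 18 condensin and cohesin genes (Esco2), with 0 rises. Their medians were -0.30, 0.16 and -0.25. Of 35 further kinetochore and centromere genes 0 passed, with a median of -0.057. The nearest were Cenpc1, a centromere protein, at -0.66 ± 0.21 (SE, adjusted p = 0.0729) and Cenpw, a histone-fold protein of the centromere, at 0.92 ± 0.37 (SE, adjusted p = 0.160). Of 39 further spindle and centrosome genes 0 passed, with a median of 0.053, and the nearest were Tubg1, which encodes gamma-tubulin, at 0.50 ± 0.20 (SE, adjusted p = 0.171) and Nek7, a mitotic kinase, at -0.53 ± 0.23 (SE, adjusted p = 0.193). Of 35 genes that control entry and G2 and M phase transcription 0 passed, with a median of -0.042. The nearest were Lin9, a subunit of the MuvB core, at -0.70 ± 0.25 (SE, adjusted p = 0.123) and Mybl2, which encodes B-Myb, at 0.79 ± 0.33 (SE, adjusted p = 0.185). Mybl2 had signals of 136, 131, 219.9, 76.4 and 86.0 in Mll-deficient samples, against 80.9, 126, 23.4, 78.9 and 47.0 in control samples. Mll-deficient replicate 3 was the highest of these and control replicate 3 the lowest, and the groups overlapped. Lin9 had signals of 119, 195, 115, 227 and 118 in Mll-deficient samples, against 223, 167, 243, 332 and 331 in control samples, with 3 Mll-deficient samples below every control.

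Markers of other cells were compared as well. Of 14 tested erythroid markers 11 rose, against 3.76% of all tested genes. The summed signal of the erythroid markers was 18295 to 21138 in Mll-deficient and 4763 to 9889 in control samples, with no overlap. Of 12 tested granulocyte and monocyte markers 0 passed, 10 lay above 0, and their summed signal was 115026 to 187394 in Mll-deficient and 101842 to 168102 in control samples, with overlap. At an unadjusted p under 0.05, 4 of the 12 were higher and 1 was lower in Mll-deficient samples (41.7%, against 20.7% of all tested genes). Of 7 tested megakaryocyte markers 0 passed, but all 7 lay below 0, with a median of -0.30, and the farthest was Vwf at -1.08 (adjusted p = 0.210). Of 7 tested B and T cell markers 0 passed and 4 lay above 0, and the T cell genes Cd3e, Cd3g and Cd4 were below the filter in both groups. The part of erythroid, granulocytic, megakaryocytic or stem cell composition in the values of the mitosis and spindle genes was not tested.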

How the data were processed

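The authors deposited signal intensities on a linear scale, 1 per probe set and array. Per the submitters' processing notes they come from MAS5 5.0, and in the table they are scaled to the same trimmed mean (2% off each end) on each array. Arrays give no read depth, and precision is limited by the number of arrays. There were 45101 probe sets, of which 64 were controls. GEO's platform annotation gave 34958 of them 1 gene symbol and 932 several, and 9211 had no name here. Current symbols came from the RefSeq table of GRCm38.p6 by Entrez identifier, where 34754 matched. Probe sets with several symbols were set aside.

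Signals were transformed as log2(signal + 16), an offset that understates changes of dim genes. A gene was tested where the mean of its brightest probe set exceeded the 40th percentile over probe sets other than controls. limma 3.58.1 under R 4.3.3 was used for the comparison (lmFit, eBayes with an intensity trend, two-sided), and intervals are 95% intervals of the moderated fit. Each adjusted p comes from limma with Benjamini-Hochberg adjustment over all tested genes, or over all tested probe sets where stated. The fit was tested on simulated data of 12581 genes, with 50 changed at each size. On the log2 scale it recovered 0 of 50 at a change of 0.5, 20 at 1, 47 at 2 and 50 at 3. Changes of up to 1 were thus often missed there, and of 120 calls 3 were false. Labels name the samples biological replicates, 1 array each. All 42 genes are accounted for in the text. In the further mitotic lists, the genes named were those past the threshold or, with none, the 2 with the smallest p. The members and lists were chosen with earlier results of these data known, and lists are described by counts and medians without a test. Alternatives covered the offset, normalization, filter, choice of probe set, variance prior, array weights, a replicate block, the 3' to middle ratio, the threshold and leaving out each array. The choice among probe sets by identifier and the split by 3' to middle ratio were added after the data had been seen.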

Additional observations from a re-analysis of the deposited data

Results flagged for a closer look

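In 5 of 82 sets of 5 samples (each of 41 genes in each group), 1 sample lay far from the other 4, by Dixon's test on log2 values, and chance alone gives about 1 such set in 20. Ccnb2 read 358, against 1186 to 1490.5 in the other Mll-deficient samples, in Mll-deficient replicate 4. Cenpf read 421, against 580.3 to 654 in the other Mll-deficient samples, in Mll-deficient replicate 5. The other 3 were high values of control replicate 5, each in a probe set whose identifier ends in _x_at. They were Cdc20 at 15136, against 7515 to 8759 in the other controls, Incenp at 29119, against 14067 to 16497 and Kif22 at 1978, against 971 to 1089.5. That array also had the highest 3' to middle ratio, 5.24 on the log2 scale, and the part of RNA quality in these values was not tested.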

How the results depend on the processing

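Counts of mitosis and spindle genes past the threshold stayed at 0 of 41 under most alternatives. They were 1 with the 60th percentile filter, 1 with array weights (Kif11 in both), 2 with the 3' to middle ratio as a covariate and 2 at a threshold of 0.1 (Kif11 and Kif23 in both), and 0 to 1 on leaving out 1 array. Their median difference stayed between -0.25 and -0.011, while that of all tested genes stayed between -0.045 and 0.025. The members' median lay above that of all tested genes in the 4 arrays with a higher ratio (-0.011 against -0.043). It also did so without control replicate 4 (-0.028 against -0.040), and in the other settings it lay below. The sign of 19 of the 41 differences was the same in all alternatives, and it changed in at least 1 alternative that left out no single array for 20 and on leaving out 1 array for 12. The count over all tested genes, 693, was 1610 with the covariate, 1186 at the threshold of 0.1, 267 in the 6 arrays with a lower ratio, 26 in the 4 with a higher one, where fewer arrays were fitted, and 307 to 874 on leaving out 1 array. It was 445, 353 and 307 without Mll-deficient replicates 1, 3 and 5, and 360, 392 and 368 without control replicates 1, 3 and 4. The 3 calls in the further mitotic lists were 0 with median centring, 1 with no filter, 9 with the covariate, 6 at the threshold of 0.1, 0 and 0 in the sets of 6 and 4 arrays, and 0 to 5 on leaving out 1 array. The cause of these changes was not tested, except that the filters and sets change the number of genes or arrays fitted. The difference in the 3' to middle ratio itself lay between -0.12 and 0.75 on leaving out 1 array. With the replicate number as a block, 0 of the 41 and 587 of all tested genes passed, and Esco2 did not (adjusted p = 0.0565). The deviations of same-numbered samples from their group means correlated at 0.080, 0.094, -0.17, -0.23 and 0.28 for replicate numbers 1 to 5. Of 10 arrays, 1 correlated best with its own number in the other group. Under median centring, which moved the median of all tested genes to 0.025, 473 genes were higher and 107 lower.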
